A study of Mus musculus with 4 samples.

Results

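Liver gene expression after 24 weeks on an atherogenic diet with high fat was set against that after 6 weeks on the same diet, in male mice of the inbred strain C57Bl/6J. For each gene, the log2 ratio of diet over chow on the 6-week array was subtracted from that on the 24-week array, with the mean taken over probes that name 1 gene. Of 13951 genes with a value on any array of the series, 13717 had a value on both high-fat arrays and form the comparison, which uses 2 of 4 arrays. The remaining pair carried the atherogenic diet without the added fat, for 6 or 24 weeks, and its values stand beside those of the high-fat diet where they help a reader.

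On each array, amplified liver RNA of diet-fed mice was labelled with Cy5 and competed with chow liver RNA, also amplified, in Cy3. On the high-fat arrays the chow mice had eaten chow for the same time as the diet mice, 6 or 24 weeks. The composition of the diets, the age of the mice at the start, the number of mice behind an RNA and whether arrays shared a chow sample are not stated in the labels or the design text. There was 1 array a side and no dye swap, so no difference has a replicate error and none was tested: sizes are given, and a difference of ratios from the diet RNA cannot be told apart from one in the chow RNA. In bulk liver, fewer cells of a type and less RNA per cell cannot be told apart either, and a ratio holds no level by which the tissue's own markers could be checked.

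An atherogenic diet, rich in cholesterol and usually holding a bile acid, loads the mouse liver with sterol and is used as a model of steatohepatitis, in which fat storage, inflammation and fibrosis occur together. Hepatocytes burn fatty acids in mitochondria and peroxisomes under the nuclear receptor PPAR-alpha, which fatty acids activate, while SREBP factors drive sterol and fatty acid synthesis when sterols are scarce. Injured liver makes chemokines that draw in monocytes, lymphocytes and neutrophils, and acute phase proteins in answer to cytokines.

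The spread of the measurement sets how a difference can be read. Over the 13717 genes the difference had a median of 0.0033 and an SD of 0.22 (log2), with quartiles at -0.11 and 0.11 and a range from -1.99 to 1.56. Probes of 1 gene differed from each other, in this same quantity, with a pooled SD of 0.21 over 2771 genes with more than 1 probe, so most genes lay within the spread between probes. At least 2-fold higher at 24 weeks were 26 genes (0.190% of those compared), and at least 2-fold lower were 15 (0.109%), 41 in all (0.299%). At least 1.5-fold higher were 145 genes (1.06%) and at least 1.5-fold lower were 126 (0.919%), 271 in all (1.98%). Among 834 odorant and vomeronasal receptor genes, a group looked at after the values were seen, 17 were at least 1.5-fold apart (2.04%), close to the share over all genes. At the 2-fold size, 4 of the 834 receptor genes were apart in either direction, against 0.299% of all genes. Size alone therefore does not set a gene apart here. Most room below goes to genes of 1 pathway whose values lay on the same side, and to genes with several probes. Such genes and probes were read on the same arrays, so they are not replicates of a diet duration. What their common side stems from was not tested.

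**Figure D1:**
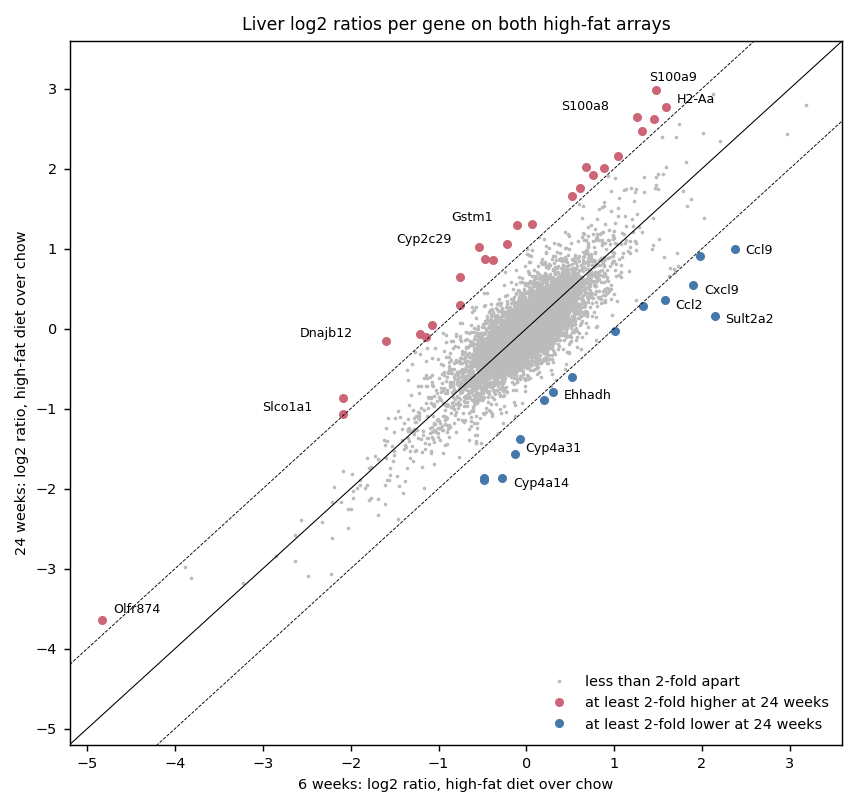
Each point is 1 of 13717 genes, with its log2 ratio of high-fat diet over chow at 6 weeks (horizontal) and at 24 weeks (vertical); the solid line marks equal ratios and the dashed lines a 2-fold difference. Most genes lie between the dashed lines; 26 genes lie above and 15 below, among them S100a9 and Cyp2c29 above and Sult2a2 and Cyp4a14 below.

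Genes of mitochondrial fatty acid oxidation had the largest median difference of the 46 gene lists. Of 22 measured genes of mitochondrial beta-oxidation and ketogenesis, 21 had a lower ratio at 24 than at 6 weeks, 8 of them by at least 1.5-fold and none the other way (36.4% of the list, against 0.919% of all genes). Their median difference was -0.42, against 0.0033 over all genes. The median ratio stood at 0.28 at 6 weeks, above chow, and at -0.26 at 24 weeks, below chow. This crossing from above to below chow occurred in 14 of the 22 genes (63.6%) and in 9.97% of all genes.

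The members at least 1.5-fold apart cover successive steps of the pathway. Acadm, the medium-chain acyl-CoA dehydrogenase that starts a round of beta-oxidation, had a log2 ratio of 0.48 at 6 weeks and -0.30 at 24 weeks, a difference of -0.78. Its electrons pass to the electron transfer flavoprotein, whose subunit Etfa stood at 0.29 and -0.39, whose subunit Etfb stood at 0.36 and -0.25, and whose oxidoreductase Etfdh stood at 0.28 and -0.51. All 3 flavoprotein genes were thus above chow on the first array and below it on the second. Hadhb, the thiolase subunit of the trifunctional protein, had ratios of 0.33 and -0.31, and its partner subunit Hadha 0.14 and -0.25. Eci1, an enoyl-CoA isomerase for unsaturated fatty acids, went from 0.44 to -0.51 between the arrays. Acat1, the mitochondrial thiolase of ketone body metabolism, was at 0.46 and -0.44.

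Fgf21, a hormone that fasting and PPAR-alpha induce in liver, had the lowest value of this list, with ratios of 0.34 and -0.64 and a difference of -0.98. The carnitine shuttle, which takes long-chain fatty acids into mitochondria, moved less: Slc25a20, the carnitine-acylcarnitine carrier, differed by -0.46, Cpt2 by -0.26 and Cpt1b by -0.37. The receptor gene Ppara itself stood at -0.07 and -0.10, a difference of -0.03, and its coactivator Ppargc1a at -0.08 and -0.44. Acads, the short-chain dehydrogenase, was the 1 member with a higher value, by 0.06, which is within the probe spread.

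Peroxisomal genes showed the same side for most but not all members. Of 22 measured, 18 were lower at 24 weeks and 5 of these by at least 1.5-fold (22.7%, against 0.919% of all genes), with a median difference of -0.37. Ehhadh, the peroxisomal bifunctional enzyme and a classical PPAR-alpha target, had ratios of 0.30 and -0.79, a difference of -1.09. Hsd17b4, the second bifunctional enzyme of the organelle, was at 0.26 and -0.38. Pex11a, which promotes peroxisome division, was at -0.23 and -1.04, and Acot1, a cytosolic acyl-CoA thioesterase, at -0.13 and -1.09, so that these 2 genes were below chow on both arrays and further below it on the second. Vnn1, a pantetheinase, was at 0.23 and -0.39. Against this side stood Acox2, which oxidises branched fatty acids and bile acid precursors, at 0.13 and 0.58, and both peroxisomal thiolase genes, Acaa1a (-0.43 and -0.16) and Acaa1b (-0.85 and -0.55).

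Microsomal omega-oxidation split by subfamily. Cyp4a14, a fatty acid omega-hydroxylase and a PPAR-alpha target, stood at -0.27 at 6 weeks and -1.86 at 24 weeks, a difference of -1.59, which is 3.01-fold. Cyp4a31 stood at -0.13 and -1.56, a difference of -1.43. The other 2 measured Cyp4a genes were lower too, but within 1.5-fold: Cyp4a10 by -0.45 and Cyp4a12a by -0.33. No Cyp4f gene was 1.5-fold lower, and Cyp4f14 was higher by 0.50, so the whole list of 11 Cyp4 genes had a median of only -0.04. Close relatives such as the Cyp4a genes can bind each other's probes, and probe sequences were not used here. Cplx1, which encodes the synaptic protein complexin, gave nearly the same values as Cyp4a14 on all 4 arrays: -0.48 and -1.89 with the high-fat diet and -1.69 and -1.44 with the plain diet, against -1.71 and -1.38 for Cyp4a14 with the plain diet.

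Of 15 genes in these 3 groups that were at least 1.5-fold lower, 10 had a promoter sequence to search. A match to DR1, the direct repeat that PPAR-alpha binds together with RXR, with at most 2 mismatches, lay within 250 bases before the start of 1 of the 10 (10%), against 3.18% of 27025 mouse promoters. With so few promoters the shares say little.

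**Figure D2:**
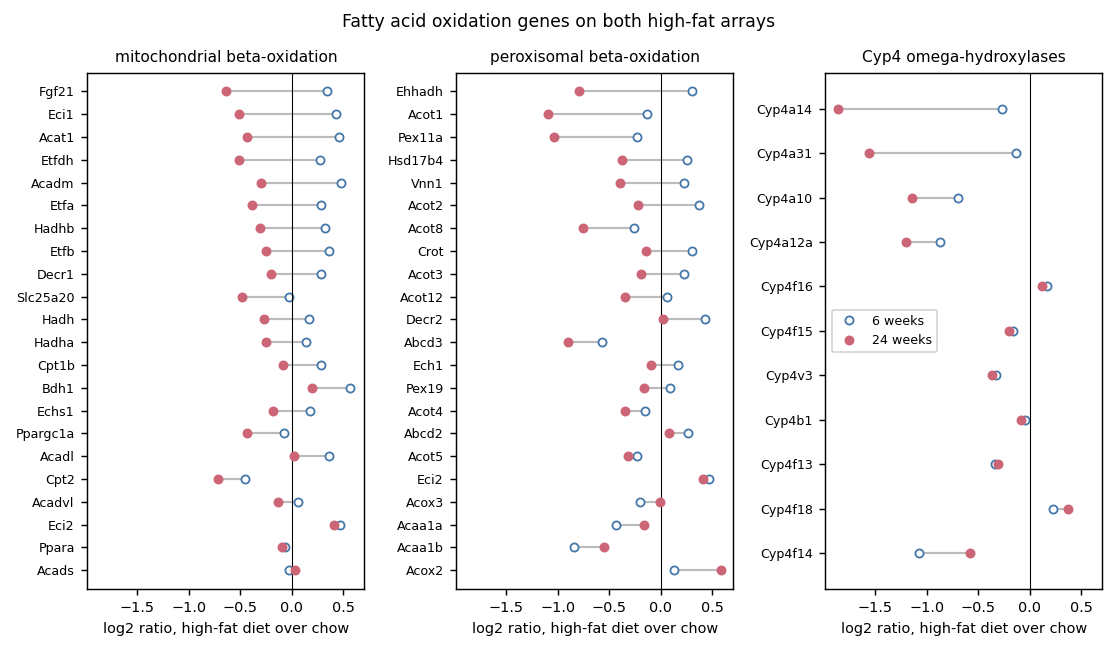
Log2 ratio of high-fat diet over chow at 6 weeks (open circles) and 24 weeks (filled circles) for every measured gene of 3 groups, sorted by difference; the vertical line marks equality with chow. Of 22 mitochondrial genes, 14 lie to the right of the line at 6 weeks and to its left at 24 weeks. The same holds for 9 of 22 peroxisomal genes, and the Cyp4a genes lie to the left of the line on both arrays.

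The plain atherogenic diet gave other list medians, but some of these genes were lower at 24 weeks there too. With it, the median ratio of the mitochondrial list was -0.54 at 6 weeks and -0.47 at 24 weeks, so the list stood below chow on both arrays. Acadm had plain-diet ratios of -0.70 and -0.75, Hadhb -0.87 and -0.70, and Ehhadh -0.28 and -0.13. Cyp4a31 was at -1.37 and -1.51. The list's median of -0.26 on the 24-week high-fat array was thus nearer to both plain-diet medians than its median of 0.28 on the 6-week array. Single genes varied: plain-diet ratios were -0.11 and -0.84 for Fgf21 and -0.20 and -1.40 for Acot1, both lower at 24 weeks. Those of Etfdh were -0.96 and -0.48, higher at 24 weeks. Whether the diets shared chow RNA is not known, so the duration differences of the diets were not compared by a test.

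Most genes of the respiratory chain lay on the same side. Among 66 genes of the respiratory chain and ATP synthase, 51 were lower at 24 weeks, 8 by at least 1.5-fold (12.1%, against 0.919% of all genes) and 1 higher by as much (1.52%, against 1.06%), with a median of -0.27. Uqcr10, a small subunit of the cytochrome bc1 complex, had ratios of 0.64 and -0.11, a difference of -0.74. Cox7b and Cox7a2, small subunits of cytochrome c oxidase, stood at 0.68 and -0.05 and at 0.60 and -0.06. Cycs, the electron carrier cytochrome c, was at 0.51 and -0.16. By complex, the median difference was -0.25 over 32 NADH dehydrogenase subunits, -0.45 over 9 genes of the bc1 complex, -0.18 over 15 cytochrome c oxidase subunits and -0.19 over 15 ATP synthase subunits, while 2 of 3 succinate dehydrogenase subunits were higher, with a median of 0.03. Cox8a, also a cytochrome c oxidase subunit, was the 1 member at least 1.5-fold higher, at -0.24 and 0.41, and 14 of the 66 genes were higher by any amount.

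Cytosolic ribosomal protein genes lay on the opposite side. Of 68 measured, 51 were higher at 24 weeks, 7 by at least 1.5-fold (10.3%, against 1.06% of all genes) and none lower by as much, with a median of 0.22. Rps14 stood at 0.05 and 0.90, Rps16 at -0.12 and 0.73, and Rpl35a at -0.01 and 0.78. The small subunit had a median difference of 0.33 over 22 genes and the large subunit one of 0.19 over 43 genes. Proteins of the mitochondrial ribosome did not share this: 53 of 69 were lower, with a median of -0.09. None was 1.5-fold apart, against 1.98% of all genes. With the plain diet the cytosolic list had median ratios of 0.54 at 6 weeks and 0.31 at 24 weeks, so it was not higher there. Those of the respiratory chain list were 0.06 and -0.15.

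Of 25 genes of lipid uptake, binding and droplets, 18 were lower at 24 weeks, with a median of -0.14. At least 1.5-fold lower were 3 (12%, against 0.919% of all genes), and none was higher by as much. Fabp2, the intestinal-type fatty acid binding protein, stood at 1.62 at 6 weeks and 0.66 at 24 weeks. G0s2, an inhibitor of the lipase ATGL, was at -0.52 and -1.43. Cidec, which promotes growth of lipid droplets, was at 0.70 and 0.02, so of the high-fat arrays only the 6-week one showed a clear excess. The scavenger receptor Cd36 remained above chow on both, at 1.44 and 1.05. Apoa4, an apolipoprotein of triglyceride-rich particles, was one of 3 genes in the comparison whose probes were all at least 1.5-fold apart one way. Its ratio was 1.0 at 6 weeks and -0.03 at 24 weeks, with probe differences of -1.07 and -1.01. Plain-diet ratios were 1.26 and -0.31 for Fabp2, -0.06 and -1.39 for G0s2, 0.66 and -0.67 for Cidec, and 0.25 and -0.60 for Apoa4. Each was thus lower at 24 weeks there too.

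Fatty acid synthesis did not move as a group, with a median of 0.10 over 21 genes. Thrsp, a regulator of lipogenesis also called Spot 14, was the member that stood out, at 0.88 and 2.01, a difference of 1.13. Fasn, fatty acid synthase, was at 0.33 and 0.28, and Scd1, the stearoyl-CoA desaturase, at 1.14 and 1.10, so neither differed beyond the probe spread. Elovl3, an elongase of very long chains, was far below chow on both arrays, at -2.49 and -3.09. Elovl5, which elongates polyunsaturated fatty acids, stood at -0.16 and -0.77. On the plain diet, Thrsp was at -0.18 and 0.04.

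No gene of cholesterol synthesis was 1.5-fold apart among 17 measured, against 1.98% of all genes. The list was low on both arrays, with median ratios of -0.36 and -0.28, and 13 of its genes were nearer to or above chow at 24 weeks, with a median difference of 0.19. Fdps, farnesyl diphosphate synthase, stood at -0.86 and -0.30, and Idi1, the isomerase before it, at -1.10 and -0.61. Dhcr7, which makes cholesterol in the last step, was at -1.33 and -1.61. Insig2, which holds the SREBP complex in the endoplasmic reticulum, was among the genes lowest at 24 weeks, at 0.20 and -0.89. The sterol exporters Abcg5 (0.99 and 0.95) and Abcg8 (0.79 and 0.53) were above chow on both arrays.

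Of 16 genes of bile acid synthesis and conjugation, 10 were higher at 24 weeks and 6 lower, with a median of 0.10. The median ratio was -0.25 at 6 weeks and -0.15 at 24 weeks, with 4 genes above chow on the first array and 6 on the second. Cyp7a1, the rate-limiting enzyme of the classical pathway, had ratios of -0.47 and -0.20. Cyp8b1, the sterol 12-alpha-hydroxylase that sets the share of cholic acid, was at -2.04 and -2.49. Cyp7b1, of the alternative pathway, was at -1.98 and -1.81. None of these 3 hydroxylases was 1.5-fold apart, and all were below chow on both arrays. The list's 2 members past 1.5-fold were Akr1c6, a hydroxysteroid dehydrogenase, at -0.47 and 0.88, and Hsd17b4, described above, which was lower. Each is 6.25% of the list, against 1.06% of all genes higher and 0.919% lower. Slco1a1, an organic anion transporter of the hepatocyte surface, was at -2.09 and -1.07, below chow on both but nearer to it on the second. Slco1a1 had plain-diet ratios of -1.71 and -2.22.

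Chemokines differed in both directions. Of 34 measured, 5 were at least 1.5-fold lower at 24 weeks (14.7%, against 0.919% of all genes) and 2 higher (5.88%, against 1.06%), while the list's median was -0.08. Ccl2, which recruits monocytes, had a ratio of 1.57 at 6 weeks and 0.36 at 24 weeks, a difference of -1.22. Ccl8, another monocyte chemokine, was at 1.33 and 0.28. Ccl9 was at 2.37 and 1.0, and Ccl5, which draws T cells, at 1.64 and 0.76. All 5 were above chow at 6 weeks and nearer to chow at 24 weeks. Ccl6 was high on both arrays, at 2.97 and 2.43.

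Cxcl9, an interferon-gamma-induced chemokine for activated T cells, is shown with its promoter because both of its probes were lower: it stood at 1.90 and 0.54, with probe differences of -1.78 and -0.92. Its 250 bases before the transcription start (RefSeq, GRCm38.p6, chr5:92328080-92328329, minus strand) are printed 5′ to 3′, with capitals for a match to the kappaB-like motif GGGANTTCC, searched on both strands.
Cxcl9: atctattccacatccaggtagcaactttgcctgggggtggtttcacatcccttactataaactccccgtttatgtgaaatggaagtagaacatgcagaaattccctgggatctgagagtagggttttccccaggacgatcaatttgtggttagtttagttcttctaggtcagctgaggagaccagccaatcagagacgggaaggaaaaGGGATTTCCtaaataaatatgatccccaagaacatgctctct
The match begins at base -42, counted back from the start. Such a match lay in 1.42% of 27025 promoters of this length, and in 1 of 3 promoters available for the 5 lower chemokines. These shares say little with so few promoters. A match describes the letters and shows no binding.

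Interferon-induced genes as a whole had a median of -0.05 over 44 genes, with 2 at least 1.5-fold lower (4.55%, against 0.919% of all genes) and 2 higher (4.55%, against 1.06%). Tgtp1, an interferon-induced GTPase, stood at 1.97 and 0.91, and Gbp7, a guanylate binding protein, at 0.58 and -0.11. On the other side, Ifitm3, a membrane protein against viral entry, was at 0.04 and 0.83. B2m, the light chain of MHC class I, was at -0.84 and -0.15, with all 3 of its probes higher. Il1b, the cytokine interleukin-1 beta, had ratios of 0.49 and -0.30. It was the 1 member of 49 cytokine and receptor genes past 1.5-fold (2.04%, against 1.98% of all genes either way). That is close to the share over all genes. The chemokine Cxcl5, which attracts neutrophils, stood at 0.51 and 1.66, and Ccl21a, a lymphoid homing chemokine, at -0.22 and 1.05.

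Markers of resident macrophages lay on both sides. Of 16 genes of Kupffer cells and complement C1q, 8 were higher at 24 weeks and 8 lower, with a median of 0.01. At least 1.5-fold lower were 2 (12.5%, against 0.919% of all genes), and 1 was higher by as much (6.25%, against 1.06%). Marco, a scavenger receptor of Kupffer cells, stood at 0.52 and -0.60, a difference of -1.12. Vsig4, a complement receptor of Kupffer cells, was below chow on both arrays, at -1.46 and -2.38. The lectin Clec4f, a defining Kupffer cell marker, was near chow at 0.08 and -0.07, and the C1q chain C1qb was at 1.14 and 1.74. Over 8 measured Kupffer cell markers, these same 2 were at least 1.5-fold lower and C1qb higher, with a median of -0.03. Over all genes, 0.919% were lower and 1.06% higher by as much. Among 40 genes of infiltrating and lipid-associated macrophages, 2 were lower (5.0%, against 0.919% of all genes) and 2 higher (5.0%, against 1.06%) by 1.5-fold. The elastase Mmp12 was at 1.69 and 0.70, and Gpnmb at 2.02 and 1.38, while the lysosomal protease Ctss was at 2.12 and 2.93. The part of cell numbers in the chemokine values was not tested.

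The 5 chemokines stood high at 6 weeks with the plain diet as well. Plain-diet ratios were 2.86 and 0.24 for Cxcl9, 1.67 and 0.44 for Ccl2, and 1.8 and 0.30 for Ccl8. Those of Ccl5 were 2.42 and 1.09, and those of Ccl9 were 2.20 and 1.37. The 6-week ratio was higher with the plain diet than with the high-fat diet for 4 of the 5 and lower for Ccl9. Marco had plain-diet ratios of 1.69 and -0.75.

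A few neutrophil genes were higher at 24 weeks. Of 14 measured, 9 were higher and 5 lower, and 4 were at least 1.5-fold higher at 24 weeks (28.6%, against 1.06% of all genes) with none lower by as much and a median of 0.15. S100a9 and S100a8 form calprotectin, the main calcium-binding protein of neutrophil cytosol. S100a9 had a ratio of 1.48 at 6 weeks and 2.98 at 24 weeks, a difference of 1.5, and S100a8 one of 1.26 and 2.64, a difference of 1.38. Lcn2, which binds bacterial iron carriers and is also made by hepatocytes in inflammation, was at 1.74 and 2.56, with probe differences of 0.81 and 0.83. Ngp, a neutrophil granule protein, was at -0.29 and 0.32.

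Other defining neutrophil genes did not share these sizes. Camp stood at 0.04 and 0.10, Ltf at 0.10 and 0.08, Mpo at -0.39 and -0.26, Elane at -0.57 and -0.73 and Ly6g at 0.11 and -0.10. Calprotectin and Lcn2 were thus well above chow while the granule enzymes were near or below it. Over 8 neutrophil markers the median ratio was -0.03 at 6 weeks and 0.09 at 24 weeks. Plain-diet ratios were high at both times, 3.24 and 3.12 for S100a9 and 2.80 and 2.64 for S100a8.

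The promoters of these 4 genes are shown because they are the members of the list furthest apart. Each line gives the 250 bases before the start, 5′ to 3′ on the gene's strand, from RefSeq (GRCm38.p6), with capitals for matches to TTNNGCAA on either strand, a core of sites for C/EBP factors, which drive granulocyte and acute phase genes. They lie at chr3:90668821-90669070 (S100a8, plus strand), chr3:90695722-90695971 (S100a9, minus strand), chr2:32387740-32387989 (Lcn2, minus strand) and chr9:110419558-110419807 (Ngp, plus strand).
S100a8: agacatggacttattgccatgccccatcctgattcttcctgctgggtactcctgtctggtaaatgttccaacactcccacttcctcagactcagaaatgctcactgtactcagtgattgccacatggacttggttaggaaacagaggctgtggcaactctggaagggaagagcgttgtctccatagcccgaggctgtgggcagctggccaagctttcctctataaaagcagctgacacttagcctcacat
S100a9: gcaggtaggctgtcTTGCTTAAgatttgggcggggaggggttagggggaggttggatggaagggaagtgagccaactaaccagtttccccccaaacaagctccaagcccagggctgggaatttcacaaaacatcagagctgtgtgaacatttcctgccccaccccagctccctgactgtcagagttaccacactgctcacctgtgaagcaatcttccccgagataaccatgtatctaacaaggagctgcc
Lcn2: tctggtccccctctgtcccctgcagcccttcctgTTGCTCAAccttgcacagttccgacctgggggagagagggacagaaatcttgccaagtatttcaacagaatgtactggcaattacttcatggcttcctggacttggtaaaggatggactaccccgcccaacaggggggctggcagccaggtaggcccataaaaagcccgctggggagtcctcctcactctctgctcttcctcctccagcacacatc
Ngp: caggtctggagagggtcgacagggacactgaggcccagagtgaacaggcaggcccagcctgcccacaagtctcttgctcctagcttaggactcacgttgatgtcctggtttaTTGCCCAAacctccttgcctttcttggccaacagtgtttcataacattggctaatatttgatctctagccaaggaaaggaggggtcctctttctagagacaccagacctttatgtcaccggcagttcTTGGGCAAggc
Matches begin at -236 in S100a9, at -216 in Lcn2, and at -138 and -11 in Ngp, and the S100a8 window holds 0. A match lay in 3 of the 4 windows and in 9.55% of 27025 promoters. The 4 genes were picked by the size of their difference, and with so few windows the shares say little. No match says only that these letters are not in this window.

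**Figure D3:**
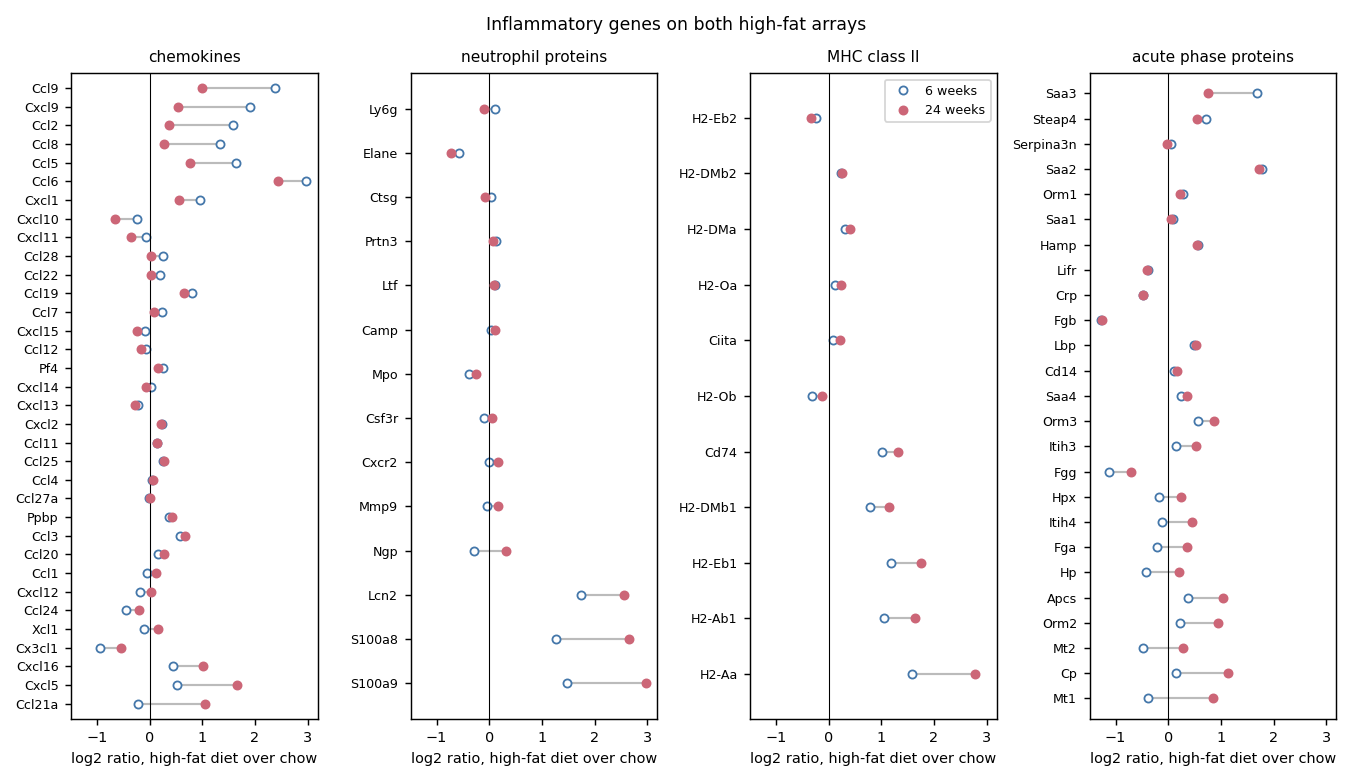
Log2 ratio of high-fat diet over chow at 6 weeks (open circles) and 24 weeks (filled circles) for every measured gene of 4 groups, sorted by difference; the vertical line marks equality with chow. Ccl9, Cxcl9, Ccl2, Ccl8 and Ccl5 lie nearer to chow at 24 weeks, while S100a9, S100a8 and H2-Aa lie further above it; most other members hardly differ.

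Genes of MHC class II, which presents antigen on macrophages, dendritic cells and B cells, were higher at 24 weeks in 10 of 11, with a median of 0.18 and 2 past 1.5-fold (18.2%, against 1.06% of all genes). H2-Aa stood at 1.59 and 2.77, a difference of 1.18. H2-Ab1, its partner chain, was at 1.05 and 1.64, and H2-Eb1 at 1.19 and 1.76. All 5 probes of H2-Ab1 were higher, from 0.26 to 0.98, and so were all 7 of H2-Eb1, from 0.14 to 1.19. The invariant chain Cd74 was at 1.01 and 1.32, so the chains of the surface molecule were above chow on both arrays. On the plain diet H2-Aa was at 2.65 and 2.15. Lymphocyte markers were near chow: over 6 of them the median ratio was -0.06 and then 0.005. None was 1.5-fold apart, against 1.98% of all genes.

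Acute phase proteins of the hepatocyte were mostly higher. Of 25 measured, 6 were at least 1.5-fold higher at 24 weeks (24.0%, against 1.06%) and 1 lower (4.0%, against 0.919%), with a median of 0.11. Mt1 and Mt2, the metallothioneins, which bind zinc and copper, stood at -0.38 and 0.86 and at -0.48 and 0.28, so both went from below to above chow. Cp, the copper oxidase ceruloplasmin, was at 0.15 and 1.14. Orm2, an orosomucoid, was at 0.23 and 0.95, Apcs, serum amyloid P, at 0.38 and 1.05, and Hp, the haemoglobin scavenger haptoglobin, at -0.43 and 0.21.

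Serum amyloid A genes did not follow them. Saa2 was high at 1.79 and 1.72, Saa1 stood at 0.10 and 0.05, and Saa3, which macrophages also make, was at 1.68 and 0.75. The plain-diet ratios of Mt1 were -0.81 and 0.71, those of Cp -0.12 and 0.77 and those of Saa3 2.26 and 1.95. Among 31 genes of metal and haem handling the same Mt1, Mt2, Cp and Hp were the 4 past 1.5-fold, all higher (12.9%, against 1.06% of all genes).

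Drug-metabolising enzymes held the largest value in each direction. Cyp2c29, a P450 of xenobiotic and arachidonic acid metabolism, stood at -0.54 at 6 weeks and 1.02 at 24 weeks, a difference of 1.56, which is 2.95-fold. Sult2a2, a sulfotransferase for bile acids and steroids, stood at 2.15 and 0.16, a difference of -1.99, which is 3.96-fold, so its excess over chow was seen on the 6-week array alone. With the plain diet Cyp2c29 was at -0.33 and -0.49 and Sult2a2 at 0.25 and -0.02. Of 29 P450 genes of families 1 to 3, 3 were at least 1.5-fold higher (10.3%, against 1.06% of all genes) and 1 lower (3.45%, against 0.919%), with a median of 0.19. Cyp2a5, a coumarin hydroxylase, was at 0.60 and 1.55, Cyp2f2 at -0.76 and 0.07, and Cyp2c55 at 1.72 and 0.94. The other measured Cyp2c genes were within 1.5-fold.

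Glutathione transferases, which conjugate electrophiles, supplied all 6 genes at least 1.5-fold higher among 42 of phase II (14.3%, against 1.06% of all genes). Lower by as much were 2, Sult2a2 and Gstm4 (4.76%, against 0.919%). The phase II list did not move as a group: 24 genes were higher and 18 lower, with a median of 0.03. In the mu class, Gstm1 stood at -0.11 and 1.30, a difference of 1.41. Gstm6 was at 0.01 and 1.0 and Gstm2 at 0.03 and 0.92, so these 3 were near chow at 6 weeks and clearly above it at 24 weeks. Gstm4 was at 0.31 and -0.42. In the alpha class, Gsta2 was at 1.31 and 2.47 and Gsta1 at 0.93 and 1.91, above chow on both arrays, while Gsta3 was at -0.95 and -0.06. Genes of 1 class are close in sequence, so their probes may not be separate measurements.

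Antioxidant enzymes and NRF2 targets beyond the transferases did not share this, with a median of 0.03 over 27 genes. Past 1.5-fold was 1 (3.70%, against 1.98% of all genes either way). That gene was Prdx1, a peroxiredoxin, at -0.48 and 0.45. Of 12 carboxylesterases, Ces2a, at 0.45 and 1.21, was the 1 past 1.5-fold (8.33%, against 1.98% of all genes either way). Plain-diet ratios of Gstm1 were 0.87 and 0.59, above chow on both arrays, and those of Gsta2 were 1.19 and 1.83.

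**Figure D4:**
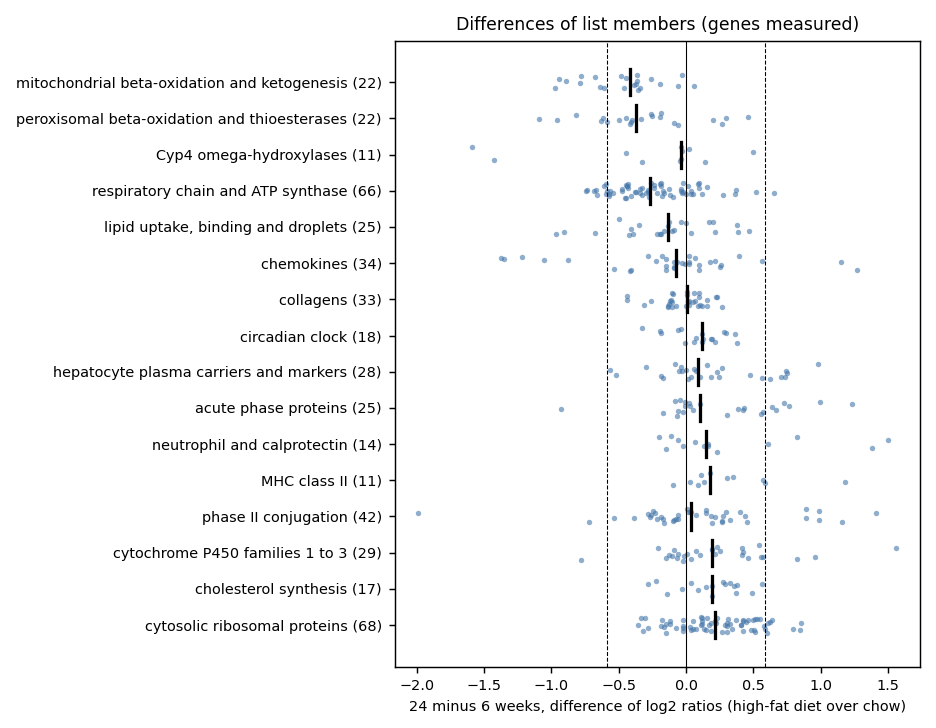
Each point is 1 gene's difference, 24 minus 6 weeks, of the log2 ratio of high-fat diet over chow, for 16 gene lists with the number measured in brackets; thick bars mark medians and dashed lines 1.5-fold. The medians run from -0.42 for mitochondrial beta-oxidation to 0.22 for cytosolic ribosomal proteins, and the collagen list stays within 1.5-fold.

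Of 33 collagen genes, 18 were higher at 24 weeks and 15 lower, with a median of 0.01. None was 1.5-fold apart, a size that 1.98% of all genes reached. Col1a2, a chain of type I collagen, was above chow on both arrays at 1.82 and 2.08. Col1a1, its partner chain, was at 0.73 and 0.42, and Col3a1 at 1.43 and 1.0. These 2 rest on probes that disagree: the 5 Col1a1 probes ran from -0.96 to 0.16 and the 3 Col3a1 probes from -1.90 to 0.53. Acta2, the actin of activated stellate cells, was near chow at 0.16 and 0.26, and Timp1, an inhibitor of matrix proteases, at 0.47 and 0.37. Over 6 stellate cell markers the median ratio was 0.14 and then 0.20.

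Among 56 genes of matrix, stellate cells and TGF-beta the median was 0.05. At least 1.5-fold higher were 2 (3.57%, against 1.06% of all genes) and lower by as much 2 (3.57%, against 0.919%). Mmp2, a gelatinase, was at 0.88 and 1.59, and Tgfb1, the main fibrogenic cytokine, at 0.22 and 1.04. Mmp13, a collagenase, was lower, at 0.80 and 0.15. Mmp7, matrilysin, was far above chow on both arrays at 3.19 and 2.79. With the plain diet Col1a2 was at 0.75 and 2.35 and Mmp2 at 0.11 and 1.98, so both were further above chow at 24 weeks there.

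Bile duct and keratin genes were higher in 19 of 24, with a median of 0.17, 3 at least 1.5-fold higher (12.5%, against 1.06% of all genes) and 1 lower by as much (4.17%, against 0.919%). Tspan8, a tetraspanin of epithelia, stood at 1.45 and 2.62, a difference of 1.17. Anxa5 was at 0.83 and 1.5. Anxa3 has 2 probes that disagree in level, one above chow on both arrays and one far below, with differences of 0.36 and 1.37. Krt23, a keratin of stressed hepatocytes, was at 1.25 and 0.35. All 5 defining bile duct markers were higher, from 0.21 to 1.17.

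Plasma proteins and hepatocyte enzymes need a limit of their own. On each high-fat array one deposited value was repeated by many more probes than the values around it, at -0.406 (log10) at 6 weeks and -0.384 at 24 weeks, and 14 probes held it on each. With values within 0.0015 (log10) of it counted in, 27 probes lay there on each array. Of 20 genes with such a probe, several encode very abundant liver transcripts: Alb, Ttr, Apoe, Ass1 and the Serpina1 genes. Alb stood at -1.34 and -1.28 (log2). All its probes lay in that range at 24 weeks and all but 1, at -1.32, at 6 weeks. No change of albumin RNA is read from these ratios. Alb had plain-diet ratios of 0.07 and 0.39.

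Among 28 hepatocyte carriers and markers, 6 were at least 1.5-fold higher at 24 weeks (21.4%, against 1.06% of all genes) and none lower by as much, with a median of 0.09, and 4 of the 28 had a probe at a repeated value. Vtn, vitronectin, stood at -1.26 and -0.29, and Ambp, the precursor of alpha-1-microglobulin, at -0.80 and -0.06. Tdo2, which starts tryptophan breakdown, was at -1.14 and -0.41, and Hpd, of tyrosine breakdown, at -1.0 and -0.38. All 4 were below chow on both arrays and nearer to it at 24 weeks. Ahsg, fetuin-A, is uncertain, since its probes differed by 0.10 and 1.40. The plain-diet ratios of Vtn were 0.21 and 0.59 and those of Tdo2 0.20 and 0.45, above chow on both arrays.

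In 11 of the 46 lists no gene was past 1.5-fold, a size that 1.98% of all genes reached. Of 18 circadian clock genes, whose RNA follows the time of day, Dbp stood at 0.32 and 0.60, Per1 at -0.40 and -0.28, Nr1d1 at -0.20 and 0.18 and Arntl at -0.26 and -0.20. None of 42 nuclear receptors, 43 genes of glucose metabolism and insulin signalling, 36 proteasome genes, 21 serpins, 17 endothelial genes, 16 sterol export genes, 11 triglyceride assembly genes or 5 NADPH oxidase subunits reached it. The housekeeping genes Actb, at 0.57 and 0.66, and Gapdh, at 0.12 and 0.21, have 11 probes each, and their probe differences ran from -0.23 to 0.56 and from -0.39 to 0.45.

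Of the 30 lists with a median within 0.1 of 0, some still held a gene well apart. Cdkn1a, the cell cycle inhibitor p21, stood at 0.29 and -0.56. It was the 1 past 1.5-fold among 46 genes of cell cycle and replication (2.17%, against 1.98% of all genes either way). Hsp90aa1, a cytosolic chaperone, was at -0.02 and -0.61, with both probes lower. Igfbp7, which binds insulin-like growth factors, was at 0.86 and 1.52. Klrd1, a receptor of natural killer cells, was at 0.81 and 0.03.

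Genes at the extremes that belong to no list were named by size. Dnajb12, a co-chaperone of the endoplasmic reticulum, stood at -1.59 and -0.15, a difference of 1.44. With the plain diet it was near chow at -0.04 and -0.05, so the 6-week high-fat array is the one that stands apart. Inmt, a methyltransferase of indoleamines, was at 0.06 and 1.31, and Kcnk13, a potassium channel, at 0.68 and 2.02. Hsd3b4, a steroid dehydrogenase, was at -2.09 and -0.86, and Rsl1d1, a nucleolar protein, at 0.75 and 1.92. Btrc, a substrate receptor of ubiquitin ligases, was at -0.07 and -1.39. Each of these rests on 1 probe.

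**Figure D5:**
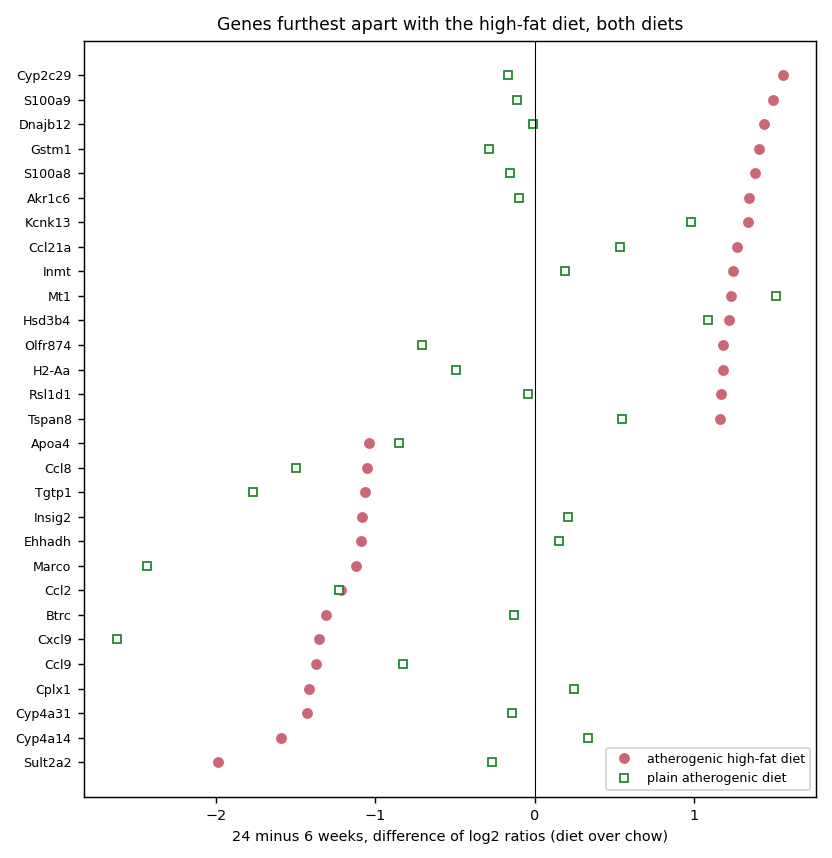
Difference of the log2 ratio, 24 minus 6 weeks, for the 15 genes furthest higher and the 14 furthest lower with the high-fat diet (filled circles), beside the difference of the same genes with the plain atherogenic diet (open squares). The genes were chosen by their high-fat values; Ccl2 and Mt1 have like values with both diets, and S100a9, Cyp2c29, Gstm1 and Cyp4a14 lie close to 0 or on the other side with the plain diet.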

How the data were processed

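Amplified liver RNA, in Cy5 for diet and Cy3 for chow, was competed on AceGene Mouse Oligo Chip 30K arrays, per the labels and design text. Images were read with GenePix Pro 4.1 and LOWESS-normalized in GeneSpring 7.2, per the same text. LOWESS leaves a dye preference of a single probe in place. Any background correction or filter on spots is not stated there. The values the authors deposited were taken as log10 ratios, diet over chow, and converted to log2. The base and direction are not stated: the base was inferred from the spread of the values and the direction from the dyes.

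Of 28845 probes, 27934 had a value on both high-fat arrays. Of all probes, 17637 named 1 gene in the platform annotation, 64 several, and 11144 were not listed. Symbols were updated through gene identifiers to RefSeq, which did not match 252. Genes were averaged over their probes (17255 probes, 13717 genes), with no further centring: the median ratio was 0.02 on both arrays and the SD across probes 0.37 at 6 weeks and 0.39 at 24 weeks. Over probes the arrays correlated with r = 0.83, a description only. The depth of an array is its signal, which is not used here, and precision is limited by having 1 array a side.

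Members and lists (46 lists, 1201 of 1407 genes measured) were chosen with earlier results of these data known. Named were the 15 largest differences each way past 2-fold, multi-probe genes with all probes past 1.5-fold one way, up to 4 members a list each way past 1.5-fold, all members of lists treated in full, and a fixed gene set. Predicted genes, and genes at a repeated value unless fixed, were passed over. The comparison with receptor genes, the families by symbol and the definition of a repeated value were added after seeing the data. Alternatives were the log base, centring, scaling, the rule for several probes, missing values, repeated values, probe order and the fold. Python 3.11.15 with pandas 2.3.3 and numpy 2.4.6 was used, and the steps were tested on simulated data.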

Additional observations from a re-analysis of the deposited data

Results flagged for a closer look

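Among the 144 named genes, 2 had duration differences in opposite directions in the 2 diets by at least 1.5-fold each. The other genes of the comparison were not searched for this. The contrast between diets was not tested, since each diet has 1 array a side. Thy1, a surface protein of T cells and fibroblasts, differed by 0.69 with the high-fat diet and by -1.33 with the plain diet. Olfr874, an odorant receptor gene, differed by 1.19 with the high-fat diet and by -0.71 with the plain diet. Both genes rest on 1 probe and were far below chow on all 4 arrays.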

How the results depend on the processing

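The number of genes at least 2-fold apart, 41 as reported, rests on reading the values as base 10 logarithms: it was 0 read as natural logarithms and 0 as base 2, 62 with each gene's most different probe, and 271 at 1.5-fold. The median of mitochondrial beta-oxidation, -0.42 as reported, was -0.18 as natural logarithms and -0.13 as base 2, and that of peroxisomal beta-oxidation, -0.37, was -0.11 as base 2. These follow from the scale itself. Under the other 8 alternatives no list median of 46 moved beyond the probe spread of 0.21. That bound is wide for list medians: 30 of them lay within 0.1 of 0, and reading as base 2 left 44 of 46 within it. Centring could move little, since both high-fat arrays had a median of 0.02. Of 99 named genes past 1.5-fold, between 98 and 99 were still past it in the same direction. The setting with single-probe genes only (88 of 88) keeps their values by construction. Dropping probes at a repeated value does so too, since none of the 99 has such a probe. The most different probe is never smaller in size than the mean, so there only the direction could change. Scaling gave the same 41 genes and left both beta-oxidation medians unchanged, so it tells little. With each gene's most different probe, 14 of 144 named genes moved by more than the probe spread. No alternative reversed a difference past 1.5-fold. The Col3a1 value depends on the rule for probes: -0.44 as a mean, 0.05 as a median and -1.90 as the most different probe. No paired analysis was possible because each group has 1 array, and for the same reason no array could be left out.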

Other observations

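Probes without a listed gene were outside the comparison. Of 10617 such probes with a value on both high-fat arrays, 19 were at least 2-fold higher and 19 at least 2-fold lower at 24 weeks, with differences from -1.91 to 2.39. The highest of them exceeds the highest named gene, Cyp2c29, at 1.56. A further 666 probes had a value on the 24-week array alone and 17 on the 6-week array alone, and did not enter the comparison; why a value is missing is not stated.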
